A study of Mus musculus with 4 samples.

Results

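The nuclear genes of the respiratory chain were taken as the protein-coding genes of the autosomes, X and Y whose symbols begin with Nduf (a, b, c, s or v), Uqcr, Cox4 to Cox8 or Atp5, with the Sdha to Sdhd genes, Cycs and Cyc1. The rule found 98 of 21887 such genes of the mouse RefSeq table: 47 of complex I (8 of them assembly factors), 4 of complex II, 9 of complex III, 20 of complex IV, 17 of complex V and Cycs, the gene of the mobile electron carrier cytochrome c. Ndufa4 and Ndufa4l2 were placed with complex IV, where the Ndufa4 protein sits. Membership rested on symbols and on no measured value.

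The data were ATAC-seq summit lists, in which each summit marks the point of strongest Tn5 insertion in a stretch of open chromatin. Haematopoietic stem cells (HSCs) came from the bone marrow of femora and tibiae of male C57BL/6 mice, wild-type and 8 weeks old. The gate of every library was LSK (no lineage markers, with Sca-1 and Kit), CD34-negative, CD48-negative, Flt3-negative and Slam1-positive, and it was split by surface CD93 into 2 CD93-positive and 2 CD93-negative libraries. Bone marrow was pooled, and the labels do not tie replicate libraries to different mice, so their spread may be technical.

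The lists held 21 and 711 summits in CD93-positive replicates 1 and 2, against 7989 and 2755 summits in CD93-negative replicates 1 and 2. Read depth was unknown, so list length was the only measure of yield, and a shorter list and fewer open sites cannot be told apart. Each summit carries the authors' score on a −log10 scale of p or q, set against the library's own background, which describes and ranks summits within a list and is not scaled between lists. Of 14 HSC and gate markers only Flt3, a cytokine receptor gene, had a summit at a gene end, in CD93-negative replicate 1 (score 10.8). None of the other 13 had one in any library, Cd93, Kit and Slamf1 included, and neither had any of 9 lineage, 6 endothelial or stromal, 4 muscle and 4 testis markers, so the labelled cell type could not be checked from its markers.

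The respiratory chain passes electrons from NADH through complex I, or from succinate through complex II, to ubiquinone, then through complex III and cytochrome c to oxygen at complex IV. The proton gradient built on the way drives ATP synthesis by complex V. Most subunits are encoded in the nucleus, and many of their promoters are known for sites of nuclear respiratory factor 1 (NRF1), of the ETS factor GABP and of YY1. HSCs are known for a metabolism that leans on glycolysis when quiescent, while activated HSCs use more respiration. Several complex IV subunits have a ubiquitous isoform and a second gene used mainly in heart, skeletal muscle, testis or lung.

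The promoters below carry the findings: those of Cycs, Ndufa6, Ndufaf8 and Atp5pb held summits in both CD93-negative libraries, and Cox8a and Cox8b are the ubiquitous and the muscle isoform of 1 complex IV subunit. Sequences are from RefSeq on GRCm38.p6, 5′ to 3′ on the gene's strand, with 250 bases before and 50 bases from the start, which is base 251. Capitals mark matches on either strand to the NRF1 letters GCATGCGC, the ETS or GABP letters CCGGAAG, the YY1 letters AAGATGGC and the TATA box TATAAA. Cycs lies at chr6:50566520-50566819 (minus strand), Ndufa6 at chr15:82354242-82354541 (minus), Ndufaf8 at chr11:120098684-120098983 (plus), Atp5pb at chr3:105959214-105959513 (minus), Cox8a at chr19:7217567-7217866 (minus) and Cox8b at chr7:140900397-140900696 (minus).
Cycs: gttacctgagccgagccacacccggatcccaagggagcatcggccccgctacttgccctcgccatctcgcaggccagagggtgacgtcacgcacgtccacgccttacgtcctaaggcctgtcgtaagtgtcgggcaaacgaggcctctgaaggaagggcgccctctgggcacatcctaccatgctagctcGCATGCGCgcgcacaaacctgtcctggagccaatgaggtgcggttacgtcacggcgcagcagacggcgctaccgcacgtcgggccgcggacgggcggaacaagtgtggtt
Ndufa6: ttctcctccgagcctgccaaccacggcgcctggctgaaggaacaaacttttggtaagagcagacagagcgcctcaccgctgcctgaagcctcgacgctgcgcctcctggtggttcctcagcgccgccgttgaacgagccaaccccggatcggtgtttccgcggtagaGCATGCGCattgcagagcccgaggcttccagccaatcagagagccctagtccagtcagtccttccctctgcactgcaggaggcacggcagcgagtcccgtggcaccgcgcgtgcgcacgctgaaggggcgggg
Ndufaf8: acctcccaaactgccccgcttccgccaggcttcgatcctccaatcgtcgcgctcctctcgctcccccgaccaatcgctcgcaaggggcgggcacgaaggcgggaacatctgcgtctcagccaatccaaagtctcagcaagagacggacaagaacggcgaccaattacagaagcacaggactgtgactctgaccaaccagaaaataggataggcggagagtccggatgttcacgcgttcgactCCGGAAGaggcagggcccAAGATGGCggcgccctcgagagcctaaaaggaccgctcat
Atp5pb: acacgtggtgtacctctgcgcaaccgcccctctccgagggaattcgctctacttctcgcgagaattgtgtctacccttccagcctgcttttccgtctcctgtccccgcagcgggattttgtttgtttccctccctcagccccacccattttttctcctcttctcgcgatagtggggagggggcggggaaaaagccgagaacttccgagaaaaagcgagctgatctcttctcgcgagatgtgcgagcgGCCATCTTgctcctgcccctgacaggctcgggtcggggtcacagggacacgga
Cox8a: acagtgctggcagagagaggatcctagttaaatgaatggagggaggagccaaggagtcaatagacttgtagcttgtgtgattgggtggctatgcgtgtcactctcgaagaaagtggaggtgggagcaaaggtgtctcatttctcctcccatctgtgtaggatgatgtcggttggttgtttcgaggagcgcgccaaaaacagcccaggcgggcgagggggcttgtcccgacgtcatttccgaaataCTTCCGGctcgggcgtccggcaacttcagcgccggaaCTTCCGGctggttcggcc
Cox8b: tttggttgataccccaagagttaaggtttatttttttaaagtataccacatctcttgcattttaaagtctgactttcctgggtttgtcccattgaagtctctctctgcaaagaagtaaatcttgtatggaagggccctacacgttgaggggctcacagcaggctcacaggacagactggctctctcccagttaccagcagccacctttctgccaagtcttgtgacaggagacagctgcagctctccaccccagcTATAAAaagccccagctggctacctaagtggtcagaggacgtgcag

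In these sequences the Cycs promoter held 1 NRF1 match from base 191, and the CD93-negative summits fell at bases 174 and 208, on either side of it. Ndufa6, an accessory subunit of complex I, held its NRF1 match from base 168, between summits at bases 192 and 142 in CD93-negative replicates 1 and 2. The Ndufaf8 promoter held an ETS match from base 243 and a YY1 match from base 261 around the start, downstream of summits at bases 131 and 179. Atp5pb held a YY1 match from base 248 at the start, and both summits lay at base 133. Cox8a held ETS matches from bases 246 and 283, with the summit of CD93-negative replicate 1 at base 160. Cox8b held a TATA match from base 255 and no summit in any library. A match is a description of letters and not a shown binding site.

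No respiratory-chain gene had a summit within 1000 bp of either of its ends, here called a gene-end summit, in either CD93-positive library, while many had one in each CD93-negative library. The counts were 0 and 0 of 98 in CD93-positive replicates 1 and 2, against 68 and 24 of 98 in CD93-negative replicates 1 and 2. The shares were 0% in the CD93-positive libraries, a count that allows up to 3.06% (3 counts), against 69.4% (exact Clopper-Pearson 95% interval 59.3 to 78.3) and 24.5% (16.4 to 34.2) in the CD93-negative libraries. The exact Clopper-Pearson interval for 0 of 98 reaches 3.69%. These limits cover counting error only. They treat genes as independent, although some share a site with a neighbour, and take no account of list length. They therefore do not bound the share of open genes in the CD93-positive libraries. The means were 0% in CD93-positive and 46.9% ± 31.7 in CD93-negative HSCs (SD, n = 2 each), a difference of -46.9 percentage points that did not pass an exact permutation test over libraries (two-sided p = 0.333, the smallest that 2 against 2 can give).

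Among all 21887 protein-coding genes, a gene-end summit was listed at 0.0183% and 3.22% in CD93-positive replicates 1 and 2, against 32.2% and 12.9% in CD93-negative replicates 1 and 2. The respiratory-chain shares in the CD93-negative libraries were thus above those of all genes. Summits nearer to another gene's end were counted in both shares. The own end was at least as near to the highest summit as any other at 73.5% and 54.2% of listed respiratory-chain genes in CD93-negative replicates 1 and 2. For all listed genes these values were 84.4% and 80.7%. In CD93-positive replicate 2 the all-gene share corresponds to 3.15 of 98 genes, so 0 is near the background and is read as no result about these genes by itself. In CD93-positive replicate 1, 47 of the 98 genes lay on a chromosome with no summit at all.

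**Figure D1:**
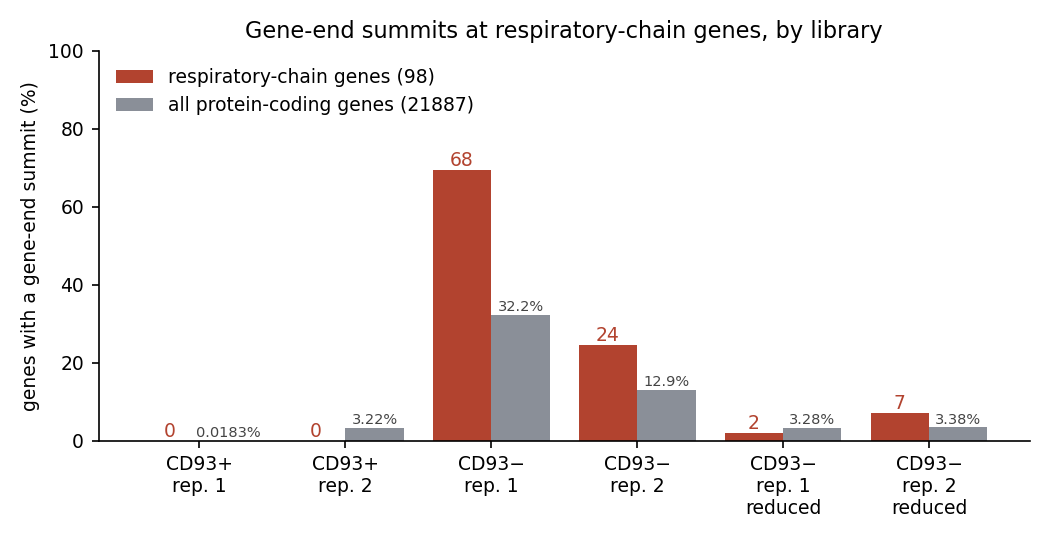
Share of genes listed by a gene-end summit (y axis, %) in each library and in each CD93-negative list cut to its 711 top summits ("reduced"), for respiratory-chain genes (left bars, with counts of 98) and all protein-coding genes (right bars). The respiratory-chain bars are 0 in both CD93-positive libraries and 68 and 24 genes in CD93-negative replicates 1 and 2, but 2 and 7 genes in the reduced lists.

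List length moved with the groups, and the difference shrank when both CD93-negative lists were cut to the length of CD93-positive replicate 2, while CD93-positive replicate 1 kept its 21 summits. Among the 711 top-scoring summits of CD93-negative replicate 1, 2 respiratory-chain genes remained, or 2.04% against 3.28% of all genes. They were Cycs, at rank 18 of that list, and Ndufa6, at rank 586. Among the 711 of CD93-negative replicate 2, 7 remained, or 7.14% against 3.38% of all genes. They were Ndufaf8 at rank 81, Atp5g1 at 260, Ndufs7 at 272, Atp5pb at 466, Uqcrh at 551, Ndufa4 at 585 and Atp5b at 588. No respiratory-chain gene was common to both reduced lists. With 2 and 7 genes, and the overlap over all genes not counted, this is no result about these genes. The difference between the groups became -4.59 points. With CD93-negative replicate 1 reduced to the 2755 summits of replicate 2, a setting chosen after seeing the data, it listed 27 respiratory-chain genes (27.6%, against 12.9% of all genes), close to the 24 of replicate 2.

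By rank, listed respiratory-chain genes spread over most of each list, and their median scores were close to those of all listed genes. The top summits of the whole lists, at 2976 and 2097 for CD93-negative replicates 1 and 2, scored far above any of these genes. Scores in CD93-negative replicate 1 ran from 5.63 to 126 with a median of 23.1, against 23.9 for the gene-end summits of all genes. In CD93-negative replicate 2 they ran from 4.58 to 23.5 with a median of 9.15, against 10.1 for all genes. Of the 68 genes listed in replicate 1, 3 were in the highest-scoring 10% of the list (4.41%, against 11.6% of all listed genes), and of the 24 in replicate 2, 3 were (12.5% against 10.0%).

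The 24 genes of CD93-negative replicate 2 were all listed in replicate 1 as well, so 24.5% of respiratory-chain genes, against 12.7% of all genes, had a summit in both. The summits of a gene lay a median of 45.5 bp apart between these libraries, against 53 bp over all genes listed in both. They lay within 171 bp of each other at 23 of the 24 genes. The exception was Ndufb6, an accessory subunit of complex I (chromosome 4, 40270591 to 40279421), whose highest summits lay 9623 bp apart at opposite ends of the gene. Both libraries listed both of its ends: 20 and 15 bp from the end at its start the scores were 18.2 and 7.05 in CD93-negative replicates 1 and 2, and 863 and 813 bp outside the other end they were 16.4 and 11.2. The summit of replicate 2 outside that end lay 63 bp from an end of Topors, so the exception came from taking the highest score.

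Complex I, the NADH dehydrogenase, had a gene-end summit at 0 of 47 genes in each CD93-positive library, against 36 and 12 of 47 in CD93-negative replicates 1 and 2. That is 76.6% and 25.5%, against 32.2% and 12.9% of all genes in the CD93-negative libraries. The same all-gene shares are the background for the classes and complexes that follow. Its core subunits, which carry the flavin and iron-sulfur centres, were listed at 6 and 4 of 7 genes in the CD93-negative libraries. Ndufs7, a core iron-sulfur subunit, had scores of 27.3 and 18.1 in CD93-negative replicates 1 and 2. Ndufs8, another, had 22.9 and 7.74. Ndufv1, the core gene that binds the flavin, had 33.6 in replicate 1 and was not listed in replicate 2. Ndufs1, the largest core subunit, had 18.1 and 10.4, and Ndufv2, which holds an iron-sulfur centre, 31.1 and 7.60.

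The accessory subunits of complex I, which surround the core, were listed at 23 and 5 of 30 genes in CD93-negative replicates 1 and 2. Their share in replicate 2, 16.7%, was near the 12.9% of all genes. Ndufa6 had a score of 59.0 in replicate 1, the highest of complex I there, and 8.01 in replicate 2. Ndufv3 followed in replicate 1 among accessory subunits (48.0) and was not listed in replicate 2. Ndufa7 had 32.7 and 7.15 in replicates 1 and 2. Ndufb6 had a score of 18.2 in replicate 1 at 1 end of the gene and 11.2 in replicate 2 at the other, as described above. Ndufb4b and Ndufb4c, further copies of Ndufb4, were listed nowhere, while Ndufb4 itself had 28.5 in CD93-negative replicate 1.

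Assembly factors of complex I were listed at 7 and 3 of 8 genes. Ndufaf8, which is needed to build complex I (chromosome 11, 120098934 to 120100424), had 54.0 and 23.5 in CD93-negative replicates 1 and 2 and none in either CD93-positive library. It ranked first among respiratory-chain genes by the lower of its 2 score percentiles. Ndufaf2, an assembly chaperone, had 13.4 and 12.0. Ndufaf1, also an assembly factor, was the 1 of the 8 listed nowhere.

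Complex II, succinate dehydrogenase, is also an enzyme of the tricarboxylic acid cycle, and all 4 of its genes were listed in CD93-negative replicate 1. The catalytic genes Sdha (flavoprotein) and Sdhb (iron-sulfur protein) had scores of 45.0 and 34.1 there and were listed in no other library. The membrane anchor Sdhd had 33.8 in replicate 1 alone. Sdhc, the other anchor, was the only one of the 4 in both CD93-negative libraries, with 20.5 and 7.35. Sdhc had the lowest score of the 4 genes in replicate 1, so presence in the shorter list did not follow the order of scores in the longer one.

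Complex III, the cytochrome bc1 complex, was listed at 7 and 3 of 9 genes in CD93-negative replicates 1 and 2. Uqcrq, a small subunit, had 51.7 and 8.13, and Uqcrh, the hinge subunit, 19.3 and 14.7. Both were absent from the CD93-positive lists. Uqcrfs1, the Rieske iron-sulfur protein, had 36.7 in replicate 1 alone. Cyc1, the cytochrome c1 gene, was listed nowhere, the nearest summit lying 4940 bp from a gene end in CD93-negative replicate 1. Of the 2 cytochrome genes of the rule, only Cycs (chromosome 6, 50562563 to 50566569) was listed. Its score was 126 in CD93-negative replicate 1, the highest of all 98 genes, and 8.98 in CD93-negative replicate 2, below that list's median of 9.81.

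Complex IV, cytochrome c oxidase, stood lowest, with 0 of 20 genes in each CD93-positive library against 7 and 2 of 20 in CD93-negative replicates 1 and 2. That is 35.0% and 10.0%, near the 32.2% and 12.9% of all genes in these libraries. Cox6a1, Cox5b and Cox8a, nuclear subunits around the catalytic core, had scores of 41.0, 33.0 and 31.5 in replicate 1 alone. Cox4i1, the largest nuclear subunit, had 31.7 and 8.46 in the CD93-negative libraries, and Ndufa4 20.1 and 14.4. Cox7a2l, a factor that links complexes III and IV into supercomplexes, had 20.8 in replicate 1 alone.

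The tissue-specific isoforms accounted for 8 of the 13 complex IV genes listed nowhere. None of the 8 was listed in any library: Cox4i2 (lung), Cox6a2, Cox7a1 and Cox8b (heart and skeletal muscle), Cox6b2, Cox7b2 and Cox8c (testis) and Ndufa4l2 (induced by low oxygen). Their nearest CD93-negative replicate 1 summits lay between 11906 bp (Cox6b2) and 619987 bp (Cox7b2) from a gene end. Of their 7 ubiquitous partners, Cox4i1, Cox6a1, Cox8a and Ndufa4 were listed in replicate 1 and Cox4i1 and Ndufa4 in replicate 2 also. The partners Cox6b1, Cox7a2 and Cox7b were not, and neither was Cox6c, which has no partner in the rule. Of all genes, 32.2% and 12.9% were listed in CD93-negative replicates 1 and 2, against 57.1% and 28.6% of the ubiquitous isoforms. With 8 and 7 genes this is a description of counts.

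Some unlisted genes had open chromatin at or near a start inside the range between their gene ends. For 79 of the 98 genes a start was given in the RefSeq promoter table, and scoring starts in place of gene ends added 3 genes. The listed start of Cox7a2 was 51 bp from a summit in CD93-negative replicate 1 (score 23.2) and 68 bp from one in replicate 2 (4.82). That of Cox5a, a nuclear subunit of complex IV, was 29 bp from a summit in replicate 1 (23.0) and 41 bp in replicate 2 (7.15). Atp5d, the delta subunit of ATP synthase, had one 819 bp from its start in replicate 1 (20.3). Gene ends thus missed summits at these 3 promoters. With either gene end or listed start, a setting chosen after the data were seen, the counts were 0 and 0 in CD93-positive replicates 1 and 2, against 71 and 26 of 98 in CD93-negative replicates 1 and 2.

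Complex V, the ATP synthase, was listed at 0 of 17 genes in each CD93-positive library, against 13 and 5 of 17 in CD93-negative replicates 1 and 2. Of its catalytic F1 head, Atp5b, the beta subunit that makes ATP, had 36.9 and 14.3. Atp5c1, the central gamma subunit, had 41.3 in replicate 1 alone. Of the genes of the rotating c ring, Atp5g1 had 42.5 and 18.2, Atp5g2 had 31.1 in replicate 1 alone, and Atp5g3 was listed nowhere. The peripheral stalk, which holds the head still, was listed at 3 of 4 genes in both CD93-negative libraries. Its subunit b gene Atp5pb had 39.9 and 15.6, Atp5j (F6) 34.6 and 11.0, and Atp5h (d) 27.2 and 9.33, while Atp5o (OSCP) had no summit. The other Fo subunits were listed at 4 of 5 genes in replicate 1 and at 0 of 5 in replicate 2.

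**Figure D2:**
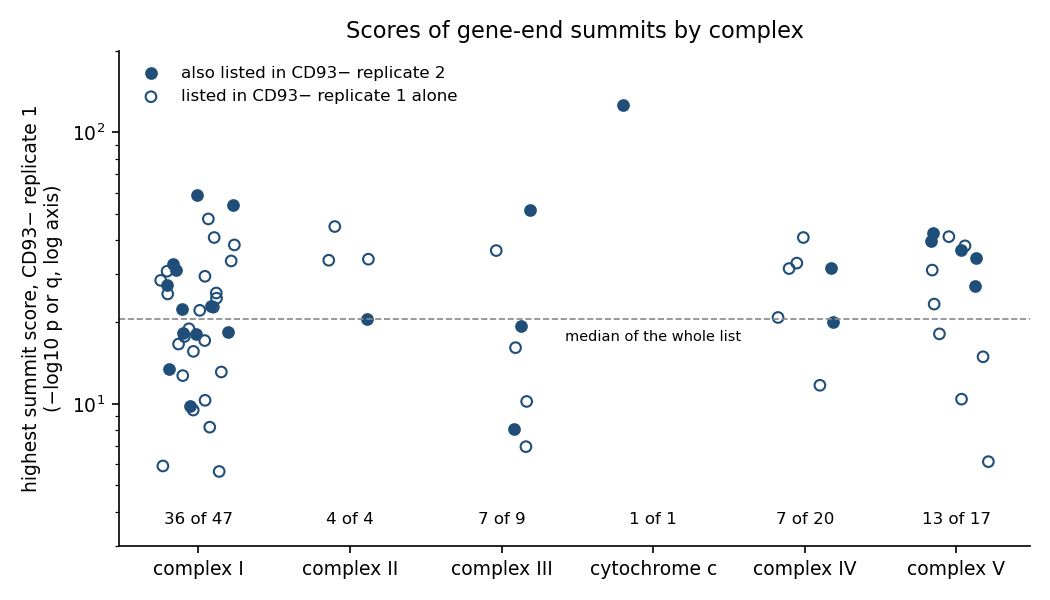
Highest gene-end summit score of each listed respiratory-chain gene in CD93-negative replicate 1 (y axis, the authors' −log10 p or q, log scale), by complex. Filled points were also listed in CD93-negative replicate 2, open points were not, the dashed line is the list's median of 20.6, and the numbers at the foot give listed genes of all genes. Cycs stands at 126, above the next highest, Ndufa6, at 59.0, and 7 of 20 complex IV genes are shown.

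Most summits at listed respiratory-chain genes lay near starts, which the rule of 1000 bp from a gene end makes likely. Listed genes in general lay near gene ends too. In CD93-negative replicate 1, 88.2% of respiratory-chain summits lay within 250 bp of an end, against 81.8% over all listed genes. In CD93-negative replicate 2 these shares were 91.7% and 78.8%. Of the 57 genes listed in CD93-negative replicate 1 with a known start, 56 had the summit within 1000 bp of it and 52 within 250 bp. Of those 56, 43 lay upstream or at the start and 13 downstream, and the median position was -41.5 bp. In CD93-negative replicate 2, 17 of 18 lay within 1000 bp and 15 within 250 bp, and of those 17, 15 lay upstream or at the start, with a median of -108 bp. Ndufa7 had summits at -27 and 6 bp in CD93-negative replicates 1 and 2, and Ndufs8 at -77 and -74 bp. Both pairs were closer than the median distance of 45.5 bp. Of the respiratory-chain genes listed in both libraries, 70.8% had the summits within 100 bp of each other, against 74.6% of all such genes. Ndufb6 lay at 20 bp in replicate 1, while its highest summit in replicate 2 was the one near Topors, 9643 bp away.

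**Figure D3:**
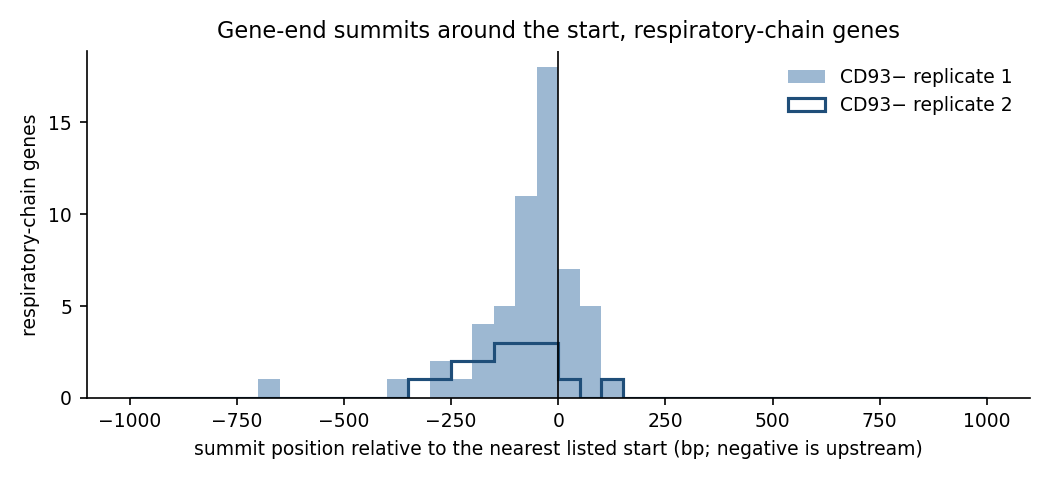
Number of respiratory-chain genes (y axis) by the position of their highest gene-end summit relative to the listed start (x axis, bp, negative upstream, bins of 50 bp), in CD93-negative replicate 1 (filled) and replicate 2 (outline). Most summits sit just upstream of the start, with medians of -41.5 and -108 bp; Ndufa13 in replicate 1 (-1260 bp) and Ndufb6 in replicate 2 (9643 bp, at the far end of the gene) lie outside the axis.

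Many of these summits could be assigned to a neighbouring gene as well. Another gene's end lay within 1000 bp of the summit at 36 of 68 respiratory-chain genes in CD93-negative replicate 1 (52.9%, against 32.3% of all listed genes) and at 18 of 24 in replicate 2, where 38.5% of all listed genes had one. The respiratory-chain gene's own end was at least as near as any other at 50 of 68 (73.5%, against 84.4% of all listed genes) and at 13 of 24 (54.2% against 80.7%). Of the 79 genes with a known start, 24 had a start on the opposite strand within 1000 bp, or 30.4% against 9.61% of all genes. Among genes listed in CD93-negative replicate 1 these shares were nearer, 38.6% (22 of 57) against 23.0%. Atp5j and Gabpa, which encodes the DNA-binding subunit of GABP, start 148 bp apart and shared 1 site with scores of 34.6 and 11.0. Sdhd starts 52 bp from Timm8b, an import chaperone gene, Ndufa7 10 bp from Rps28, a ribosomal protein gene, and Ndufaf8 203 bp from Tepsin. At such pairs a summit belongs to no 1 gene.

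None of the respiratory-chain sites of the CD93-negative libraries was listed in CD93-positive replicate 2. Of all genes listed in CD93-negative replicate 1, 9.95% were also listed in CD93-positive replicate 2, but 0 of the 68 respiratory-chain genes were. Of those listed in CD93-negative replicate 2, 21.5% were, against 0 of 24 respiratory-chain genes, and of those listed in both CD93-negative libraries 21.8% (608 of 2787), against 0 of the same 24. The last share corresponds to 5.24 of 24 genes. These zeros were fixed by the 0 of 98 genes listed in CD93-positive replicate 2, which was near the background, and they restate that count. Genes are not replicates and CD93-positive replicate 2 is 1 library, so this has no test. The summit of CD93-positive replicate 2 nearest to any of these genes lay 3462 bp from an end of Uqcr11, a small subunit of complex III, and a CD93-negative replicate 1 summit lay 3329 bp from that gene.

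The score of a site moved with its recovery. Across rising score quartiles of the list of CD93-negative replicate 1, 0.0753%, 1.26%, 5.06% and 28.1% of listed genes were also listed in CD93-positive replicate 2. The respiratory-chain genes in these quartiles, 0 of 12, 0 of 17, 0 of 24 and 0 of 15, were not. In CD93-negative replicate 2 the shares were 5.15%, 11.4%, 21.5% and 46.3%, with 0 of 3, 0 of 10, 0 of 4 and 0 of 7 respiratory-chain genes. With shares taken by quartile, the all-gene values correspond to 5.65 of 68 and 5.40 of 24 genes. The zeros by quartile again restate the empty count of CD93-positive replicate 2 and are no further result. Cycs and Ndufa6 were in the highest quartile of CD93-negative replicate 1, and Ndufaf8, Atp5g1 and Ndufs7 in that of CD93-negative replicate 2.

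**Figure D4:**
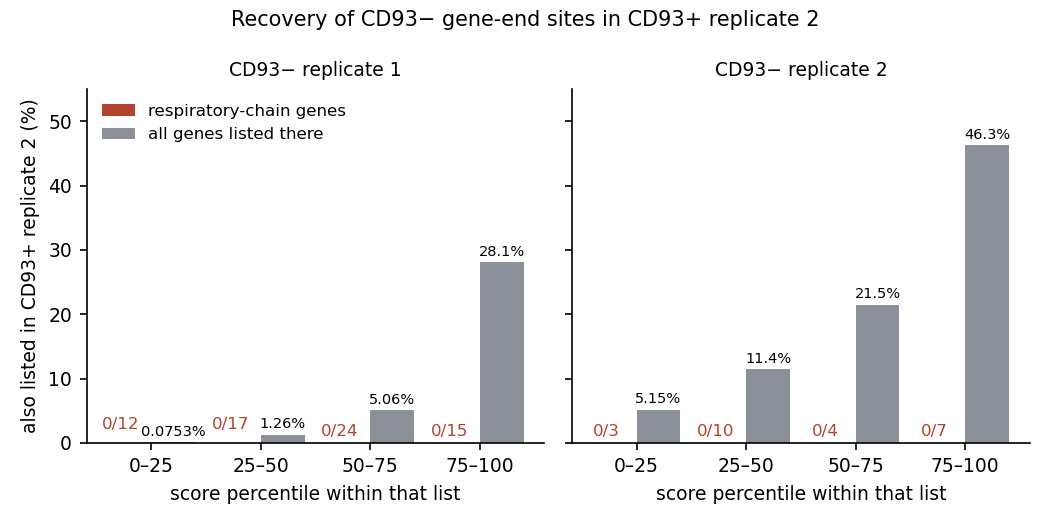
Share of genes listed in a CD93-negative library that were also listed in CD93-positive replicate 2 (y axis, %), by the score percentile of the summit within the CD93-negative list (x axis), for replicate 1 (left panel) and replicate 2 (right panel). The bars for all genes climb to 28.1% and 46.3%, while the respiratory-chain genes, printed as counts, are at 0 in each quartile. These zeros follow from the 0 of 98 genes listed in CD93-positive replicate 2.

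The promoters of respiratory-chain genes differed in their letters from those of the genes listed in CD93-positive replicate 2. Motifs were searched as exact letters on both strands of the 300-base promoters, with matches of different motifs counted separately where they overlap. NRF1 letters were in 13 of 79 respiratory-chain promoters (16.5%), against 5.97% of the 603 promoters of genes listed in CD93-positive replicate 2, 7.11% of the 5808 listed in CD93-negative replicate 1 and 3.66% of all 17492. Those 13 included Cycs, Ndufa6, Sdhb, Cox6a1 and Atp5g2. ETS letters were in 24.1% of respiratory-chain promoters, against 16.3%, 23.1% and 12.0% in the same 3 sets, among them Cox8a, Ndufaf8, Sdhd and Uqcrh. YY1 letters were in 13.9%, against 4.98%, 6.10% and 3.25%, among them Atp5pb, Atp5j and Ndufs7.

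The GC box (GGGCGG), known as a site of SP factors, went the other way. It was in 35 of 79 respiratory-chain promoters (44.3%), against 84.6% of those listed in CD93-positive replicate 2, 73.0% of those in CD93-negative replicate 1 and 46.6% of all. The median GC content was 57.7% for respiratory-chain promoters, against 66.0%, 62.7% and 56.3% in the same 3 sets. The CCAAT box (CCAAT), known as a site of NF-Y, was in 44.3% against 51.4%, 42.5% and 39.2%, and the TATA letters in 10.1% against 5.64%, 5.63% and 13.2%. In the reduced CD93-negative lists of 711 summits the GC box share was 83.4% and 83.0%, close to that of CD93-positive replicate 2, so high GC box shares went with short lists in both groups.

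**Figure D5:**
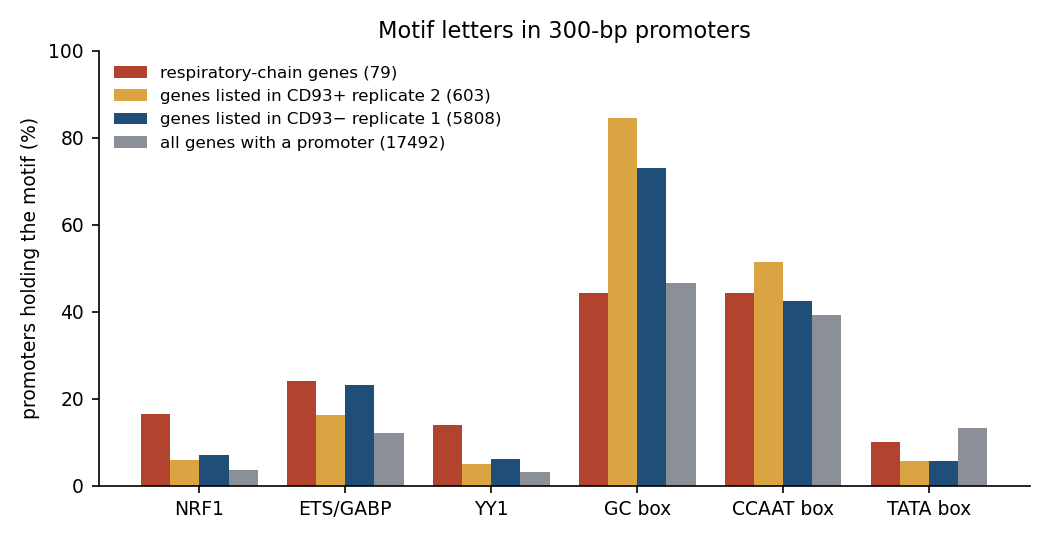
Share of 300-base promoters that hold each motif on either strand (y axis, %) for respiratory-chain genes, genes listed in CD93-positive replicate 2, genes listed in CD93-negative replicate 1 and all genes with a promoter in the table. The respiratory-chain bars are highest for NRF1 (16.5%), ETS/GABP (24.1%) and YY1 (13.9%). For ETS/GABP the bar is near the 23.1% of genes listed in CD93-negative replicate 1. The bar is low for the GC box (44.3%, against 84.6% in CD93-positive replicate 2).

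Promoter composition also moved with recovery in CD93-positive replicate 2. Among genes listed in both CD93-negative libraries, 25.4% of those with a GC box were listed there, against 13.8% of those without, and the respiratory-chain genes were at 0 of 9 in each class. Across rising tertiles of GC content the shares were 13.9%, 22.1% and 32.5%, and the respiratory-chain genes were at 0 of 11, 0 of 5 and 0 of 2. The part of GC content, GC boxes or list length in the absence of respiratory-chain genes from CD93-positive replicate 2 was not tested. Taken by GC tertile, the all-gene shares correspond to 3.29 of these 18 genes. The zeros by promoter class also restate the empty count of CD93-positive replicate 2 and are no further result.

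Among respiratory-chain genes themselves, the listed genes had the higher median GC content. Promoters of the 57 listed in CD93-negative replicate 1 held NRF1 letters at 17.5% and ETS letters at 26.3%, against 13.6% and 18.2% of the 22 unlisted. Without tissue-specific isoforms and Ndufb4 copies the 17 unlisted genes held them at 17.6% and 23.5%, so the NRF1 shares no longer differed in that direction. Over all genes listed and not listed in that library, NRF1 letters were at 7.11% and 1.94% and ETS letters at 23.1% and 6.47%. The median GC content was 60.0% for the listed and 53.0% for the unlisted genes, against 62.7% and 52.0% over all genes listed and not listed in that library. The 4 tissue-specific isoforms with a known promoter (Cox6b2, Cox7a1, Cox7b2 and Cox8b) had a median ratio of observed to expected CpG of 0.382, with a range of 0.115 to 0.564. The 6 ubiquitous isoforms with one had 0.820, with a range of 0.368 (Cox7b) to 1.08 (Cox6a1). The 2 ranges overlapped only through Cox7b. None of the 4 held NRF1, ETS or YY1 letters, which were in 3.66%, 12.0% and 3.25% of all promoters, so 0 of 4 is near the background. Of the 6 ubiquitous genes, 3 held ETS letters (Cox6a1, Cox6b1 and Cox8a), 1 held NRF1 letters and 0 held YY1 letters.

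Genes around the respiratory chain were counted in the same way, and their counts are to be read against the shares of all genes, 0.0183% and 3.22% in CD93-positive replicates 1 and 2, against 32.2% and 12.9% in CD93-negative replicates 1 and 2. Factors that assemble complexes II to V had 0 and 1 of 32 genes in CD93-positive replicates 1 and 2, against 26 and 12 of 32 in CD93-negative replicates 1 and 2. The 1 gene was Cox20, a chaperone of a complex IV subunit, with a score of 5.74 in CD93-positive replicate 2, against 44.3 and 15.8 in CD93-negative replicates 1 and 2. Other complex I assembly factors had 0 and 1 of 7, against 4 and 4 of 7, the 1 being Ecsit (5.74, against 27.0 and 8.99). Ubiquinone synthesis had 0 and 1 of 13, against 7 and 3 of 13, through Coq10b, a ubiquinone-binding protein (11.8, against 81.6 and 12.2).

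The factors that control respiratory genes or maintain and express the mitochondrial genome had 0 and 1 of 22 genes in CD93-positive replicates 1 and 2, against 14 and 8 of 22 in CD93-negative replicates 1 and 2. Tfb2m, a mitochondrial transcription factor, was the 1, with 5.39 in CD93-positive replicate 2, against 67.9 and 10.0. Of the factors whose letters were searched, Yy1 had 57.6 and 15.6 in CD93-negative replicates 1 and 2, Nrf1 had 21.7 in replicate 1 alone, and neither was in a CD93-positive list. Esrra, a nuclear receptor that drives respiratory genes, had 88.6 and 16.4, and the coactivator gene Ppargc1a had none.

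The tricarboxylic acid cycle had 0 and 2 of 16 genes in CD93-positive replicates 1 and 2, against 12 and 5 of 16 in CD93-negative replicates 1 and 2. They were Pdhb, a subunit of pyruvate dehydrogenase (10.9, against 60.5 and 11.7), and Mdh2, malate dehydrogenase (10.9, against 90.3 and 27.2). Glycolysis had 0 and 0 of 23, against 14 and 2 of 23. The 2 in both CD93-negative libraries were Pgam1, phosphoglycerate mutase (72.7 and 10.7), and Pkm, pyruvate kinase (40.5 and 8.48). Beside the 3.22% of all genes in CD93-positive replicate 2, these counts of 0 to 2 describe single genes and are no result about the lists.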

How the data were processed

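Each deposited file lists the peak summits of 1 library, not pooled, with its place and strength. The submitters' processing notes name Bowtie2, MACS2 and the build mm10, while versions, thresholds and any Tn5 shift were not given in the sources used here. Each deposited score was taken as the authors' −log10 p or −log10 q; which of these was not stated. Groups follow the sample titles; the summit names carry other replicate numbers (CD93-positive: 2 for 1, 3 for 2; CD93-negative: 3 for 2).

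Gene ranges came from RefSeq GRCm38.p6, the assembly behind mm10, and starts, strands and promoters from its promoter table, which matched 79 of the 98 genes. A gene was listed when a summit lay within 1000 bp of either end, and the highest-scoring one was taken. Depth was unknown. Groups were compared by an exact permutation test over libraries; lists and motifs were only counted. Alternatives were windows of 500 and 2500 bp, score minimums of 5 and 10, CD93-negative lists cut to 711 summits, subunits only, own end nearest, starts only, autosomes only, leaving out each library and a replicate block. Genes named with values were those of the first 20 by the lower score percentile of both CD93-negative libraries, the 3 of highest score per complex in CD93-negative replicate 1, the isoform pairs, Cycs, Cyc1 and the Sdh genes. Other members named, and the genes of other pathways named with values, were chosen after their values were seen. The members and lists were chosen with earlier results of these data known. Python 3.11.15, numpy 2.4.6, pandas 2.3.3, scipy 1.17.1 and matplotlib 3.10.9 were used, and the scoring was checked on simulated data.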

Additional observations from a re-analysis of the deposited data

How the results depend on the processing

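The difference in the share of respiratory-chain genes with a gene-end summit, CD93-positive minus CD93-negative, kept its direction under each of the 16 alternatives. As both CD93-positive counts were 0, alternatives that only remove summits, genes or libraries could not have reversed it. Leaving out each library in turn gave -69.4 to -24.5 points, the value being -24.5 without CD93-negative replicate 1 and -69.4 without CD93-negative replicate 2, so the size rests on which CD93-negative library is used. Cutting both CD93-negative lists to 711 summits, with CD93-positive replicate 1 left at 21, moved it to -4.59 points, with 2 and 7 of 98 genes in CD93-negative replicates 1 and 2. In CD93-negative replicate 2 the count moved to 11 with a score of at least 10. It moved to 14 where the gene's own end had to be nearest to any of its gene-end summits, against 13 by the highest summit alone. Each of these alternatives admits fewer summits. A fit with the replicate block, pairing libraries by title number, gave -46.9 points (exact sign-flip permutation p = 0.500, the smallest 2 pairs allow); the libraries share only a number, and 2 pairs cannot show whether it pairs them. The count of CD93-positive sites at these genes near a CD93-negative summit was 0 under each of its 10 alternatives. No such site existed at the main setting, so only the window of 2500 bp could have raised the count. No threshold of the test can be passed with 2 libraries a group. Leaving out the tissue-specific isoforms and the Ndufb4 copies, chosen after the data were seen, gave -52.3 points, and adding listed starts gave -49.5. Unknown depth limits every count of 0.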

Other observations

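Some respiratory subunits encoded by the mitochondrial genome, which the rule left out, had summits in the CD93-positive lists, and so had other parts of that genome. ND5, a membrane subunit of complex I, held a summit in all 4 libraries, near position 12847, with scores of 38.5 and 109 in CD93-positive replicates 1 and 2, against 229 and 74.9 in CD93-negative replicates 1 and 2. COX1, the catalytic subunit of complex IV, held one at position 6342 with 73.4 in CD93-positive replicate 2, against 167 and 56.5 in CD93-negative replicates 1 and 2. ND4, of complex I, was listed with 67.4 in CD93-positive replicate 2 and 156 in CD93-negative replicate 1. CYTB, the cytochrome b of complex III, had 71.7 in CD93-positive replicate 2 and no summit in the other libraries. So 4 of the 13 mitochondrial protein-coding genes had a summit in some library. The summits were not particular to subunit genes. The ribosomal RNA gene mt-Rnr1 also held one in all 4 libraries (66.3 and 28.8 in CD93-positive replicates 1 and 2, 87.2 and 38.2 in CD93-negative). The ribosomal RNA gene mt-Rnr2 was listed in CD93-positive replicate 2. Sites in no gene had 77.6 in CD93-positive replicate 2 and 316 in CD93-negative replicate 1. Scores are not scaled between libraries, and mitochondrial DNA carries no nucleosomes.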
